A study of Mus musculus with 10 samples.

Results

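Cholesterol synthesis, uptake and efflux were followed through 32 genes, chosen by name with earlier results of these data known. They cover enzymes from acetyl-CoA to cholesterol and the SREBP2 transcription factor with the proteins that hold or release it. Others take up, move, esterify or export sterols. All 32 were found among the 32903 genes to which the deposited transcripts were assigned, and all 32 passed the filter on low counts that left 14597 genes to be tested. The RNA came from preadipocytes, cells that can become fat cells, taken from tissue labelled iSAT of male mice of genotype WT C57 BL6. Cells of 5 libraries were given the vehicle DMSO alone and cells of 5 libraries were given BPS, which is bisphenol S, a replacement for bisphenol A in plastics and papers, at 2.5 µM in DMSO. The length of exposure, the age of the mice and the source of the replicates (animals or dishes) were not given in the sources used here, so p-values measure the spread between these libraries, which may be technical. The study's title places the comparison within the question of how bisphenols promote the formation of fat cells.

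Total estimated counts per library ran from 37920689 to 42717227. Levels are given in CPM, counts scaled to a common library size. The preadipocyte marker Pdgfra averaged 903.8 CPM under DMSO and 863.3 under BPS. Of 8 preadipocyte markers, 4 had log2 fold changes above 0 and 4 below. The adjusted threshold was passed by 1 of the 8, where 4.88% of all genes tested passed it. It was Cd34, which rose by 0.28 on the log2 scale. Pdgfra (-0.066, SE 0.019), Fap (-0.10, SE 0.038) and Dpp4 (-0.20, SE 0.11) did not pass, and each had 4 BPS libraries below all DMSO libraries. The 6 adipocyte markers had at most 5 counts in any library, with Lep at 0 counts in all of them. Csf1r of macrophages and Msln and Upk3b of mesothelium also had 0 counts, and the summed level of 8 macrophage markers was 12.1 to 19.0 CPM in DMSO and 13.4 to 21.4 CPM in BPS. Of 6 mural cell markers, 2 rose (Cspg4 and Mcam), where 3.06% of all genes tested rose, and the 6 together summed to 76.6 to 81.4 CPM in DMSO and 84.0 to 97.8 CPM in BPS. Mcam passed in 19 of 19 alternatives and Cspg4 in 5 of 19, being lost without any single DMSO library or BPS replicate 3, 4 or 5. Of 5 mesothelial markers 2 were tested: Krt19 rose by 0.27 on the log2 scale, a call held in 10 of 19 alternatives and lost without DMSO replicate 1, 3 or 4 or BPS replicate 2, 3 or 4, and Wt1 had -0.59 (SE 0.22, edgeR adjusted p = 0.155). The 5 summed to 9.055 to 11.02 CPM in DMSO and 10.99 to 12.9 CPM in BPS, most of it Krt19, while 6 endothelial markers summed to 17.6 to 23.2 CPM in DMSO and 17.1 to 22.9 CPM in BPS. The part of these cells in the results below was not tested, and in RNA from whole cultures fewer cells of a type and less RNA per cell cannot be told apart. The library codes in the labels place the DMSO libraries before the BPS libraries, so a batch that followed that order and the treatment cannot be told apart.

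Animal cells build cholesterol from acetyl-CoA through mevalonate and squalene. SREBP2 is made as a membrane protein of the endoplasmic reticulum, where Scap escorts it and the Insig proteins retain the pair while sterols are plentiful. When membrane sterol falls, the pair moves to the Golgi, proteases free the SREBP2 transcription domain, and genes of the synthesis pathway are transcribed, Insig1 and Srebf2 itself among them. Sterol excess acts through oxysterols on the liver X receptors, which raise the exporters Abca1 and Abcg1 and the ubiquitin ligase Mylip. Fat cells hold a large pool of free cholesterol.

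Promoters are shown because the SREBP2 program acts there. Of the 32 members, 26 had an entry in the RefSeq promoter table of build GRCm38.p6. Sqle, Fdps, Fdft1, Stard4, Npc1 and Abcg1 had none and were not searched for motifs. The 250 bases before the start site are printed for Srebf2, Insig1, Cyp51 and Sc5d, which rose under BPS, for Hmgcs1, which carried the longest match to a sterol regulatory element, and for Abca1, which fell. They lie at chr15:82147019-82147268 on the plus strand for Srebf2, chr5:28071162-28071411 (plus) for Insig1, chr5:4104698-4104947 (minus) for Cyp51, chr9:42264301-42264550 (minus) for Sc5d, chr13:119690101-119690350 (plus) for Hmgcs1 and chr4:53159896-53160145 (minus) for Abca1. Each reads 5′ to 3′ in the direction of the gene, and capitals mark TCACNCCA, a core of the sterol regulatory element to which SREBP2 binds, and CCAAT (or ATTGG on the other strand), the box bound by NF-Y, a factor that acts with SREBPs.
Srebf2: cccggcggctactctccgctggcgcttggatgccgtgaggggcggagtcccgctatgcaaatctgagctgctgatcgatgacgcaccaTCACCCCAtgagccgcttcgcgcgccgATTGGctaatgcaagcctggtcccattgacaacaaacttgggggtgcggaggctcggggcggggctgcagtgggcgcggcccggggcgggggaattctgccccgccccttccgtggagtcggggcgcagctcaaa
Insig1: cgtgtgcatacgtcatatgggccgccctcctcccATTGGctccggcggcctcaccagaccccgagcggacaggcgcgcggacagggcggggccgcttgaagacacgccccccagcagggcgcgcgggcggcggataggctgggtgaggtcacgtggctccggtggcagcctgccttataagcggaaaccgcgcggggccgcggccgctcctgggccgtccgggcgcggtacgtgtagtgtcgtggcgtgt
Cyp51: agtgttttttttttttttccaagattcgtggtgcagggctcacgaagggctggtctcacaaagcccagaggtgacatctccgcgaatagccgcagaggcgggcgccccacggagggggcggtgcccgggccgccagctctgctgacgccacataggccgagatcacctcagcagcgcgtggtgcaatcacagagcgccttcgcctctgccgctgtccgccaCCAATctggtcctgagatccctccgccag
Sc5d: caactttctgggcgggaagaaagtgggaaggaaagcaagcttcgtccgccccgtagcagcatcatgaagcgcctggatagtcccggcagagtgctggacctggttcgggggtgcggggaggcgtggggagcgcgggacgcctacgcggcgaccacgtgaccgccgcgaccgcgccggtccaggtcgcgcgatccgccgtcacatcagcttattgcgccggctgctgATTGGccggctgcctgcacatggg
Hmgcs1: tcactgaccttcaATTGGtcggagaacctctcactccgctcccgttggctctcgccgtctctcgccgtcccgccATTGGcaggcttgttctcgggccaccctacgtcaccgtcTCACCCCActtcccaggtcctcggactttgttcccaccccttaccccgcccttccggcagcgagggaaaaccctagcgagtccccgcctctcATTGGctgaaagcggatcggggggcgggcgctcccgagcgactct
Abca1: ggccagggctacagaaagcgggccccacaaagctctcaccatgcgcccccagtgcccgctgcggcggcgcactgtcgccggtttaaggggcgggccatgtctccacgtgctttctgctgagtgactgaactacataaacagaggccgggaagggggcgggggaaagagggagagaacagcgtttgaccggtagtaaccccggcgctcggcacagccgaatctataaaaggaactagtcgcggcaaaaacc

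The core TCACNCCA, searched on both strands over the 250 bases before any listed start, was found in 3 of the 26 members with an entry (Hmgcs1, Msmo1 and Srebf2) and in 4.2% of 27025 genes. The longer TCACNCCAC was found in Hmgcs1 alone, against 1.22% of genes. In Srebf2 the core began 162 bases before the start and an inverted CCAAT box followed at 135 bases. In Hmgcs1 the core began at 137 bases, with inverted CCAAT boxes at 237, 176 and 45 bases. CCAAT stood in 21 of the 26 members, or 80.8%, against 37.49% of all genes and 40.65% of the tested genes with an entry. The GC box GGGCGG was in 21 of the 26 members, against 61.16% of the tested genes, and the E-box CACGTG in 6 of them, against 9.51%. The promoter of Abca1 held GC boxes and an E-box and neither TCACNCCA nor CCAAT. These matches describe letters and not binding, and elements with other spellings were not counted.

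BPS libraries differed from DMSO libraries by small amounts, mostly upward, in cholesterol synthesis and its control. Of the 32 members, 6 rose, 1 fell and 25 did not pass an adjusted p of 0.05. The risers were Fdps, Sqle, Cyp51 and Sc5d, enzymes of the pathway, and Srebf2 and Insig1, its regulators, and the gene that fell was Abca1, a cholesterol exporter. Among all 14597 genes tested, 3.06% rose, 1.82% fell and 4.88% did either. The 5 BPS values lay wholly above or below the 5 DMSO values in 7 of the 32 members and in 6.9% of all genes. The median log2 fold change of the members was 0.063 against 0.00038 over all genes, and 24 of 32 were above 0 against 50.2% of all genes. Because the members were chosen with earlier results of these data known, these contrasts with all genes are descriptive. With libraries scaled by their total alone, 22 were above 0, 3 members rose and 1 fell, and with upper-quartile scaling 7 rose and 0 fell. Over all genes 447 rose and 265 fell, but 334 and 394 with the total alone. Without BPS replicate 1 the members' median was 0.034.

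**Figure D1:**
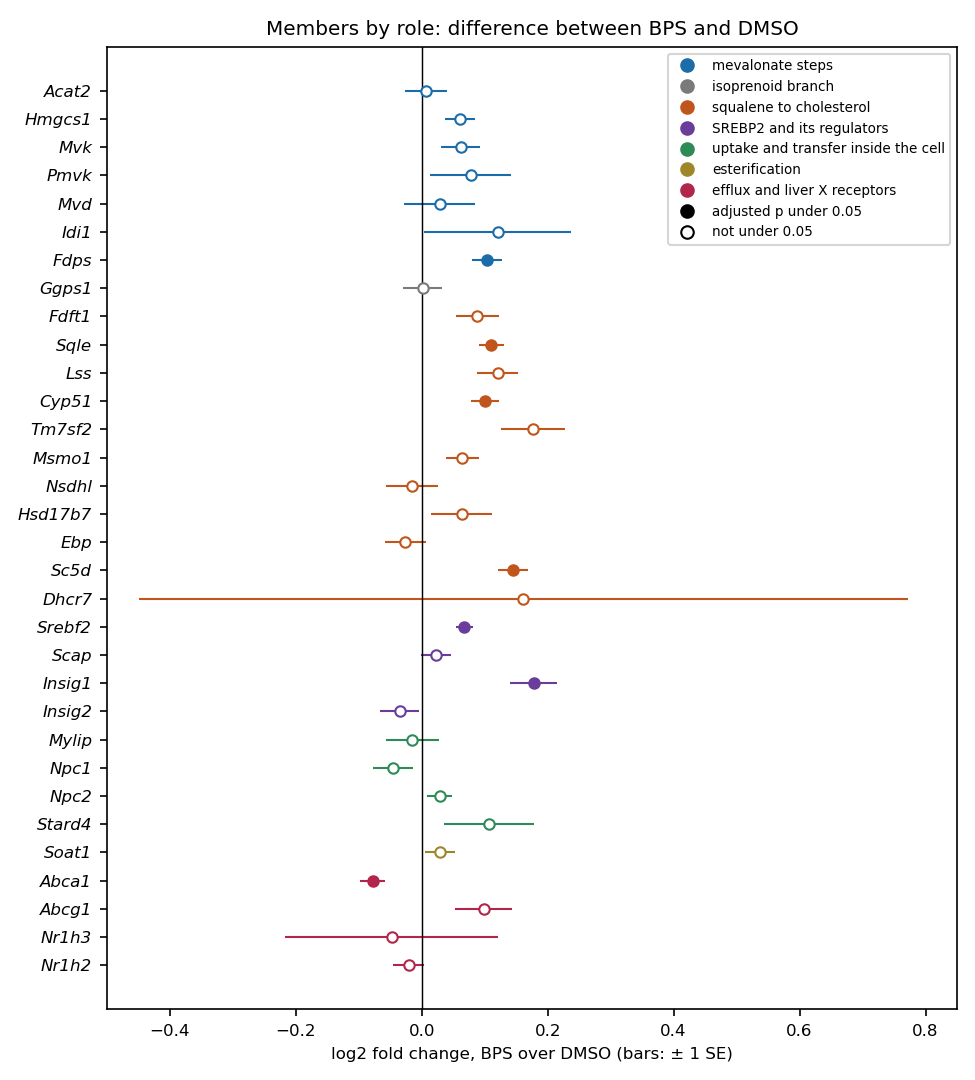
Log2 fold change of BPS over DMSO for each of the 32 members, grouped by role (colours), with bars of 1 SE and filled points where the adjusted p was under 0.05. Most synthesis enzymes lie right of 0 with values of at most 0.18, Abca1 lies left of 0, and the wide bar belongs to Dhcr7.

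The 7 genes of the mevalonate steps lead from acetyl-CoA to farnesyl diphosphate, and 1 of them rose. Fdps, which joins isoprene units into farnesyl diphosphate, stood at 90, 92.2, 91.4, 91.9 and 89.6 CPM in DMSO replicates 1 to 5 and at 103.2, 94.4, 98.1, 96.4 and 96.6 CPM in BPS replicates 1 to 5. Every BPS library was above every DMSO library, and BPS replicate 1 was the highest. The means were 91.0 ± 1.15 and 97.7 ± 3.32 CPM (SD, n = 5 each) and the log2 fold change was 0.10 (SE 0.024) or 7.42%. The quasi-likelihood test of edgeR gave an adjusted p of 0.0289. The adjusted p was 0.0511 to 0.071 when any DMSO library, BPS replicate 3 or BPS replicate 4 was left out, 0.078 with libraries scaled by their total, 0.0504 without a filter and 0.0562 with exact version matching.

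The other 6 mevalonate genes did not pass the test, and all had log2 fold changes above 0. Hmgcs1, which makes HMG-CoA, stood at 187.1, 189.8, 180.8, 189.3 and 179.4 CPM in DMSO and at 199, 184.9, 191.9, 193.5 and 196.8 CPM in BPS. Only BPS replicate 2 fell within the DMSO range, and the adjusted p was 0.186 by edgeR (log2 fold change 0.061, SE 0.024). Mvk, which phosphorylates mevalonate, and Pmvk, which phosphorylates the product of Mvk, had log2 fold changes of 0.062 (SE 0.031) and 0.078 (SE 0.064). Mvd, the decarboxylase that follows, had 0.029 (SE 0.056), and Idi1, the isomerase, 0.12 (SE 0.12) with BPS values of 12.5 to 19.5 CPM around DMSO values of 12.7 to 15.9 CPM. Acat2, the thiolase that starts the pathway, had 0.0072 (SE 0.034), and its sign changed with the library total as scale, where it was -0.0074. Ggps1, which turns farnesyl diphosphate toward protein prenylation, averaged 44.9 CPM in both groups.

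From squalene to cholesterol, 3 of 11 enzymes rose and 8 did not pass the test. Sqle, squalene epoxidase, a slow step of the pathway, had 97.8, 100.2, 99.5, 98.6 and 100.1 CPM in DMSO and 111.8, 105.2, 105.2, 106.6 and 106.9 CPM in BPS. The groups did not overlap and the DMSO libraries were close together. The means were 99.2 ± 1.0 and 107 ± 2.71 CPM (SD, n = 5 each), and the log2 fold change was 0.11 (SE 0.020) or 7.98%, with an edgeR adjusted p of 0.00889. The call held without each single library.

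Sc5d, the desaturase that acts near the end of the pathway, had the smallest adjusted p of the members. It had 78.2, 75.5, 75.5, 74.8 and 75.7 CPM in DMSO and 87.8, 83.9, 80.8, 84.3 and 83.1 CPM in BPS. The lowest BPS library was above the highest DMSO library. The log2 fold change was 0.14 (SE 0.024) or 10.6%, with an edgeR adjusted p of 0.00523, and the call held in 19 of 19 alternatives for the summed gene.

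Cyp51, which demethylates lanosterol, had 158.9, 152.6, 150.2, 156.4 and 148 CPM in DMSO and 169.5, 160.9, 163.2, 164.1 and 163.5 CPM in BPS. The groups did not overlap, and the nearest pair was DMSO replicate 1 and BPS replicate 2. The log2 fold change was 0.10 (SE 0.022) or 7.21%, with an edgeR adjusted p of 0.0242. That p was 0.0508 to 0.0613 without DMSO replicate 2, 3 or 5 or BPS replicate 3 or 4, and 0.0651 with libraries scaled by their total.

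Of the 8 others, Lss and Tm7sf2 came nearest to the threshold. Lss, which closes the sterol rings, had a log2 fold change of 0.12 (SE 0.033, edgeR adjusted p = 0.0613), and only the lowest BPS value, 35.2 CPM, lay within the DMSO range of 32.7 to 35.3 CPM. It passed with upper-quartile scaling (adjusted p = 0.0474) and in the DESeq2 Wald test (0.0471). Tm7sf2, a sterol reductase, had 5.985, 6.113, 6.059, 6.002 and 5.92 CPM in DMSO and 7.297, 6.692, 6.798, 6.398 and 6.808 CPM in BPS. Its groups did not overlap, on 212 to 291 counts per library, and its log2 fold change of 0.18 (SE 0.050) had an edgeR adjusted p of 0.0698. Fdft1, squalene synthase, stood at 0.088 (SE 0.034), Msmo1 at 0.065 (SE 0.027) and Hsd17b7 at 0.063 (SE 0.048), the last 2 being enzymes of the steps that demethylate the ring. Nsdhl, of the same demethylation steps, and Ebp, an isomerase, had log2 fold changes of -0.016 (SE 0.042) and -0.026 (SE 0.033).

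Dhcr7, the reductase of a final step, varied too much between libraries to be compared. Its libraries fell into high and low values in both groups, with 2.78, 10.3, 10.4, 1.40 and 3.13 CPM in DMSO and 10.8, 12.5, 2.93, 2.73 and 2.49 CPM in BPS, on 53 to 435 counts. The spread within each group was larger than any difference between them (log2 fold change 0.16 with SE 0.61; edgeR adjusted p = 0.926). Of its counts 74.1% were assigned to 1 predicted transcript. The index used for counting was not given in the sources used here, so the assignment of reads to this gene could not be checked and its levels are uncertain.

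**Figure D2:**
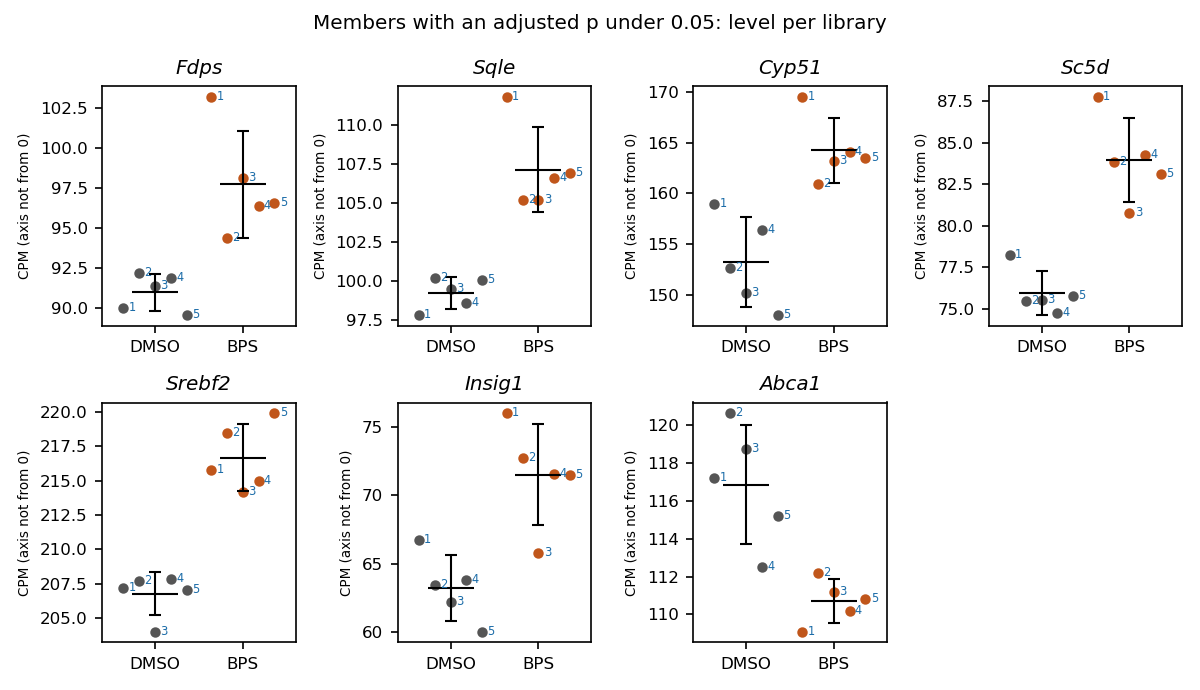
Level in CPM of the 7 members with an adjusted p under 0.05, 1 point per library with its replicate number, and the mean ± SD of 5 libraries per group in black. The vertical axes do not start at 0. The groups do not overlap in 6 of the panels, and in the panel of Insig1 BPS replicate 3 lies below DMSO replicate 1.

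BPS replicate 1 carried the largest values of the pathway. Of the 18 synthesis enzymes (7 mevalonate genes and 11 from squalene on), 15 had their highest level of all 10 libraries there, while that library was the highest for 11.4% of all genes tested. Against the DMSO mean, the median log2 level of the 18 enzymes was 0.16 in BPS replicate 1 and 0.049, 0.054, 0.081 and 0.073 in BPS replicates 2 to 5. In DMSO replicates 1 to 5 it was 0.0033, 0.0095, -0.027, 0.0059 and -0.023, so the median was higher in each BPS library than in each DMSO library. Single enzymes were less apart: 17, 11, 12, 13 and 13 of the 18 were above the DMSO mean in BPS replicates 1 to 5. In DMSO replicates 1 to 5 the numbers were 9, 10, 6, 10 and 7. BPS replicate 1 was also the library with the highest total of estimated counts, 42717227, and the part of depth was not tested. Without it, the median log2 fold change of the 18 enzymes was 0.052 in place of 0.083, and 13 in place of 16 were above 0. The same 6 members rose without that library, with an adjusted p under 0.05 for each. Over all genes, 774 were called without BPS replicate 1 and 712 with all 10 libraries.

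**Figure D3:**
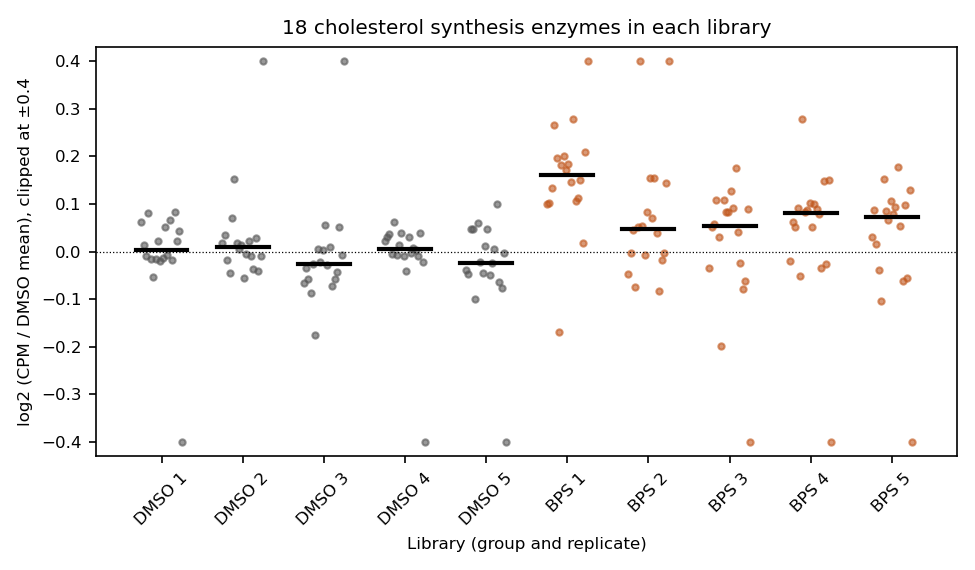
Level of 18 cholesterol synthesis enzymes in each library, as log2 of CPM over the mean of the 5 DMSO libraries, with 1 point per enzyme and a black line at the median. Points beyond 0.4 in either direction are drawn at the edge. The medians are 0.16 for BPS replicate 1, 0.049 to 0.081 for the other BPS libraries and -0.027 to 0.0095 for the DMSO libraries.

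Among SREBP2 and its regulators, 2 of 4 rose. Srebf2, which encodes SREBP2, had 207.2, 207.7, 204, 207.8 and 207 CPM in DMSO and 215.8, 218.5, 214.2, 215 and 219.9 CPM in BPS. The groups were narrow and did not overlap. The means were 207 ± 1.59 and 217 ± 2.43 CPM (SD, n = 5 each), and the log2 fold change was 0.068 (SE 0.014) or 4.80%, with an edgeR adjusted p of 0.0170. The call held without each single library and was lost when libraries were scaled by their total (adjusted p = 0.0543) and with exact version matching (0.274).

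Insig1, which retains SREBP2 and is itself a target of it, showed the highest log2 fold change of the 32 members, close to that of Tm7sf2. It had 66.7, 63.5, 62.2, 63.8 and 60.04 CPM in DMSO and 76.0, 72.7, 65.8, 71.6 and 71.5 CPM in BPS. BPS replicate 3 lay within the DMSO range and the other 4 BPS libraries were above it. The log2 fold change was 0.18 (SE 0.038) or 13.1%, with an edgeR adjusted p of 0.0207, and of 0.0515 without BPS replicate 2.

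Insig2, the second retention protein, did not pass the test. Its levels were 27.02, 24.99, 24.94, 25.3 and 25.5 CPM in DMSO and 24.88, 24.27, 24.76, 24.83 and 25.88 CPM in BPS, with 4 of the BPS libraries under the lowest DMSO value. The log2 fold change was -0.035 (SE 0.030, edgeR adjusted p = 0.602). Scap, the escort, had 197.5, 191.1, 189.5, 194.3 and 198.8 CPM in DMSO and 201.4, 205.7, 190, 197.8 and 191.6 CPM in BPS. These ranges overlapped, with a log2 fold change of 0.023 (SE 0.024, edgeR adjusted p = 0.684). Whether Insig1 and Insig2 differed in their response was not tested.

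None of the 4 genes for uptake and transfer inside the cell passed the adjusted threshold. In edgeR 0 of them had an unadjusted p under 0.05, where 2750 of all 14597 genes tested had one. Mylip, the ligase that marks lipoprotein receptors for degradation, stood at 43.1 to 47.9 CPM in DMSO and 41.7 to 48.0 CPM in BPS (log2 fold change -0.015, SE 0.043). Npc1 and Npc2 hand cholesterol out of the lysosome. Npc1 was at 47.5 to 50.4 CPM in DMSO and 44.1 to 48.7 CPM in BPS (-0.046, SE 0.031), and Npc2 at 515.1 to 545.3 and 527.9 to 550.9 CPM (0.028, SE 0.020). Stard4, which carries sterol between membranes, was at 8.29 to 10.7 CPM in DMSO and 8.96 to 10.4 CPM in BPS (0.11, SE 0.071). Soat1, the enzyme that esterifies cholesterol for storage, was at 140 to 147.4 CPM and 142.5 to 154.3 CPM (0.029, SE 0.024). For each of these 5 genes the ranges overlapped.

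On the export side 1 of 4 genes changed. Abca1, which exports cholesterol to lipid-poor apolipoprotein, had 117.2, 120.6, 118.7, 112.5 and 115.2 CPM in DMSO and 109.1, 112.2, 111.2, 110.2 and 110.8 CPM in BPS. All BPS libraries were below all DMSO libraries, and DMSO replicate 4 and BPS replicate 2 nearly met. The means were 117 ± 3.12 and 111 ± 1.18 CPM (SD, n = 5 each), and the log2 fold change was -0.078 (SE 0.020) or -5.26%, with an edgeR adjusted p of 0.0490. This call was at the threshold: the adjusted p was 0.0247 without DMSO replicate 4 and 0.0696 to 0.115 without any other single library.

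The other exporter and the liver X receptors did not pass the test. Abcg1, which passes cholesterol to lipoprotein particles, had 12.5, 13.4, 13.5, 12.4 and 12.0 CPM in DMSO and 14.3, 13.1, 13.2, 13.9 and 13.9 CPM in BPS. Its log2 fold change of 0.098 (SE 0.045) was opposite in sign to that of Abca1, with an edgeR adjusted p of 0.270. Nr1h2, the liver X receptor found in most tissues, had 50.8, 52.2, 55.2, 52.4 and 53.1 CPM in DMSO and 51.0, 53.1, 52.2, 51.4 and 52.4 CPM in BPS (-0.020, SE 0.024, edgeR adjusted p = 0.727). Nr1h3, the receptor of macrophages, liver and fat, had 1.36, 1.59, 1.57, 1.90 and 1.76 CPM in DMSO and 1.71, 1.75, 1.79, 1.72 and 0.941 CPM in BPS. On 34 to 72 counts per library its interval was wide (-0.047, SE 0.17, edgeR adjusted p = 0.920), and without BPS replicate 5 its sign changed to 0.091.

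**Figure D4:**
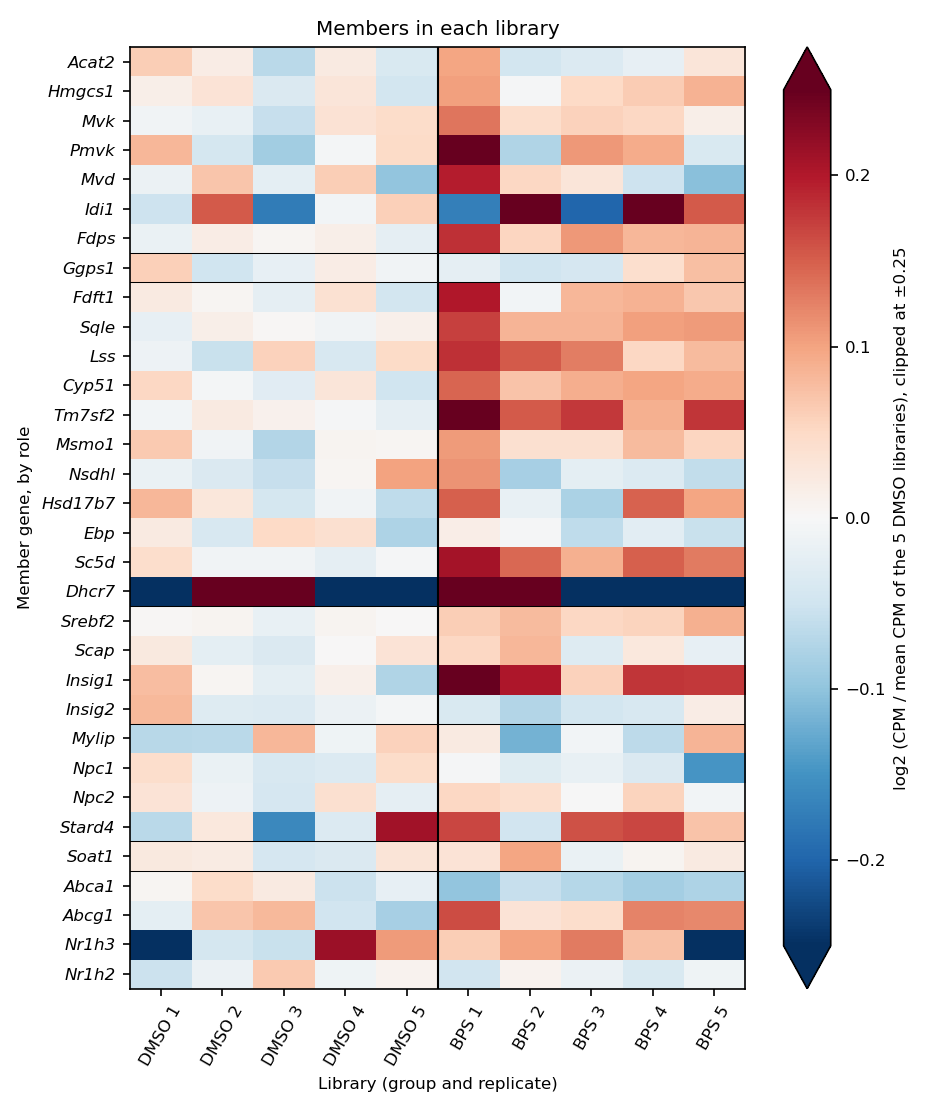
Each of the 32 members (rows, by role, separated by lines) in each of the 10 libraries (columns), as log2 of CPM over the mean of the 5 DMSO libraries, with colours clipped at 0.25. The BPS columns are mostly red over the synthesis enzymes, deepest in BPS replicate 1, Abca1 is blue in all 5 BPS columns, and Dhcr7 alternates between extremes in both groups.

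Taken transcript by transcript, no member passed the adjustment. Of 69 member transcripts tested among 37588, 0 had an adjusted p under 0.05 by edgeR, 14 had an unadjusted p under 0.05, and the smallest adjusted p was 0.0624, for the only transcript of Sqle. Over all transcripts 0.335% were called, and the share with an unadjusted p under 0.05 was not counted. The DESeq2 Wald test called 7 of the 69 member transcripts, of Cyp51, Fdps, Hmgcs1, Insig1, Sc5d and Sqle. Over all transcripts that test called 803, or 2.14%. Srebf2 was split between a curated transcript with 71.7% of its counts and a predicted one with 28.3%, with log2 fold changes of 0.069 (SE 0.028) and 0.068 (SE 0.053). Sc5d was split likewise, at 55.2% and 44.8% of its counts, with log2 fold changes of 0.15 (SE 0.028) and 0.14 (SE 0.035). For these 2 genes both transcripts showed the gene's direction. The main transcript of Abca1, with 87.8% of its counts, had -0.069 (SE 0.045). The main transcript of Hmgcs1, with 85.9% of its counts, had -0.0048 (SE 0.037), whereas a minor one went from 6.18% of the gene's counts in DMSO to 9.65% in BPS (0.70, SE 0.20, edgeR adjusted p = 0.373). In Insig2 a curated transcript held 22.9% of the gene's counts in DMSO and 5.74% in BPS, with a log2 fold change of -1.99 and an SE of 1.06 (edgeR adjusted p = 0.855).

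Of 53 further genes of the pathway in 4 lists, 52 were tested, 2 rose, 1 fell and 49 did not pass the test. The 3 called are 5.77% of those tested, near the 4.88% of all genes, and the median log2 fold change was 0.0064 against 0.00038 over all genes. None of the 10 genes that process or degrade SREBPs and sterol-sensing proteins was called at the adjusted threshold. In edgeR 1 of them had an unadjusted p under 0.05, where 2750 of all 14597 genes tested had one. It was Mbtps1, the Golgi protease that starts SREBP cleavage, at -0.058 (SE 0.018, edgeR adjusted p = 0.0923). Of the 12 lipogenic SREBP targets 4 had an unadjusted p under 0.05 in edgeR and 1 rose. The riser was Fads1, a fatty acid desaturase, from 270 ± 1.98 to 283 ± 7.12 CPM (SD, n = 5 each, log2 fold change 0.072, SE 0.018, edgeR adjusted p = 0.0431). Its adjusted p was 0.0706 to 0.0966 without any single DMSO library, BPS replicate 2 or BPS replicate 4, 0.124 with libraries scaled by their total, 0.0979 without a filter and 0.209 with exact version matching. Tmem97, a sterol-regulated membrane protein, had 0.098 (SE 0.029, adjusted p = 0.0792) and Srebf1, which encodes SREBP1, -0.018 (SE 0.081, edgeR adjusted p = 0.937). None of the 13 genes that use isoprenoids was called, and 1 had an unadjusted p under 0.05: Nus1, a subunit of the enzyme that makes dolichol precursors, at 0.059 (SE 0.018, edgeR adjusted p = 0.0926).

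Of 18 genes for other sterol uptake, transfer and oxysterols, 17 were tested, 1 rose and 1 fell. Among all genes tested, 3.06% rose and 1.82% fell. An unadjusted p under 0.05 in edgeR was found for 3 of the 17, where 2750 of all 14597 genes tested had one. Ch25h, which makes an oxysterol that holds SREBPs back through Insig, had 12.5, 11.9, 12.3, 11.8 and 13.1 CPM in DMSO and 15.9, 16.8, 14.8, 16.9 and 13.3 CPM in BPS. The groups did not overlap, although BPS replicate 5 came close to DMSO replicate 5. The log2 fold change was 0.34 (SE 0.065) or 26.2%, with an edgeR adjusted p of 0.0138, and the call held without each single library. Scarb2, a lysosomal membrane protein, had 308.6, 301, 316.8, 295.1 and 297.8 CPM in DMSO and 249.6, 272.1, 264.5, 260 and 260.6 CPM in BPS. It was lower in every BPS library, by -0.22 on the log2 scale (SE 0.025) or -14%, with an edgeR adjusted p of 0.000605. Scarb1, a lipoprotein receptor, averaged 18.7 CPM under DMSO and 20.5 under BPS (log2 fold change 0.13 with SE 0.043; edgeR adjusted p = 0.114).

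**Figure D5:**
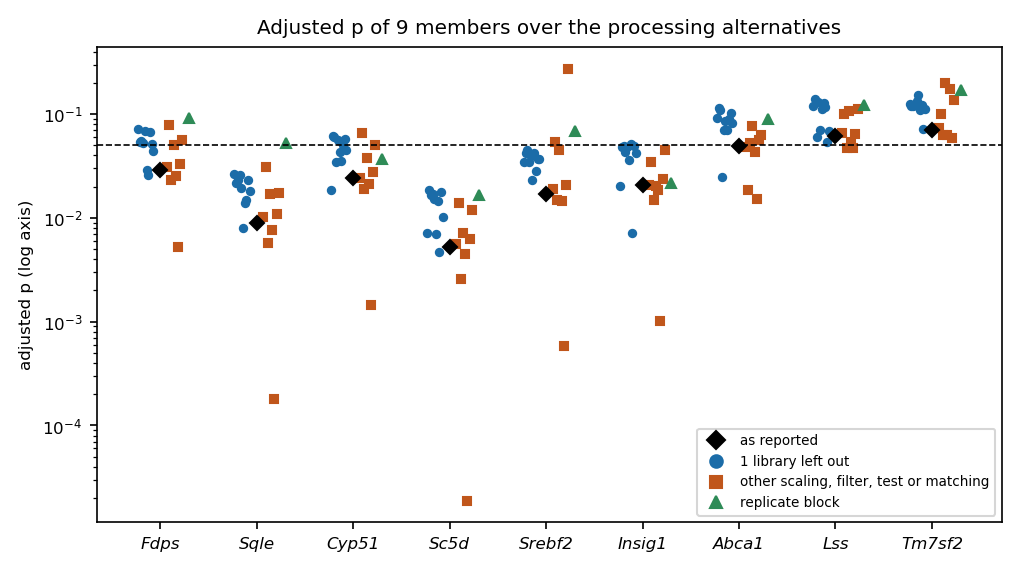
Adjusted p of the 7 called members and of Lss and Tm7sf2 (log axis) as reported, with each library left out, under other scalings, filters, tests or matching, and with a replicate block. The dashed line is 0.05. These are values of summed genes. Sc5d lies below the line throughout, Sqle crosses it with the block (0.0526), and Abca1 lies above it under most alternatives.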

How the data were processed

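RNA sequencing libraries from 10 preadipocyte samples (5 DMSO, 5 BPS) were analysed. The authors' deposited table holds estimated counts for 107384 RefSeq transcripts, made with kallisto 0.42.4 per the submitters' processing notes. The index, the build and the strand setting used were not given in the sources used here. Per the file headers, columns carry library codes, each found in the labels of 1 sample (0 unmatched). The estimated counts were fractional with unequal totals.

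Accessions were matched without version to a RefSeq gene table (GRCm38.p6, used for names), which placed 86722 transcripts in 32903 genes and 93.1% of counts, and the rest stayed out. Counts were summed per gene and rounded. Genes were filtered with filterByExpr and scaled by TMM (factors 0.9854 to 1.008). The treatments were contrasted with the quasi-likelihood test of edgeR on all genes, with Benjamini-Hochberg adjustment over 14597 genes. The SE is the log2 fold change over the square root of F. CPM used TMM-scaled assigned counts. No level is compared between genes, as lengths were not used. Chi-square over its degrees of freedom was 4.13 to 8.77 between replicate pairs, so none was a copy. The highest values, 8.77, 8.39 and 6.53, were those of BPS replicate 1 with BPS replicates 5, 2 and 3, and with BPS replicate 4 it had 5.1. Code was tested on simulated counts. Tools were Python 3.11.15, DESeq2 1.42.0, limma 3.58.1 and edgeR 4.0.16 in R 4.3.3.

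Members and lists were chosen with earlier results of these data known, and the promoter motifs after the values had been seen. Values per library are given for members with an adjusted p under 0.05 and for Srebf2, Scap, both Insig genes, both liver X receptors, Abca1 and Abcg1 by rule, and, chosen after their values were seen, for Hmgcs1, Tm7sf2 and Dhcr7. Up to 5 called genes of each further list are named by rule, and Mbtps1, Nus1, Tmem97, Srebf1 and Scarb1 were added after their values were seen. Alternatives were other scalings, filters, DESeq2, limma-voom, a replicate block, exact version matching, the most abundant transcript alone and leaving out each library.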

Additional observations from a re-analysis of the deposited data

Results flagged for a closer look

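Of 78 groups of 5 values, 10 had 1 library that stood apart from the other 4 by Dixon's criterion at the 95% level, where chance gives about 3.9. BPS replicate 1 stood high for Sqle (111.8 CPM, others 105.2 to 106.9) and for Nsdhl (32.93 CPM, others 28.75 to 29.96). DMSO replicate 1 stood high for Sc5d (78.24 CPM, others 74.76 to 75.74) and Insig2 (27.02 CPM, others 24.94 to 25.47), and low for the mural marker Mcam (17.63 CPM, others 20.27 to 21.2). DMSO replicate 3 was low for Srebf2 (204 CPM, others 207 to 207.8) and for the preadipocyte marker Cd34 (42.54 CPM, others 45.57 to 46.51). BPS replicate 5 was low for Npc1 (44.06 CPM, others 47.61 to 48.7) and Nr1h3 (0.941 CPM, others 1.705 to 1.788). BPS replicate 2 was high for the mural marker Cspg4 (48.14 CPM, others 41.73 to 43.09). Without the library concerned, the calls for Sqle, Sc5d and Srebf2 held.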

How the results depend on the processing

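The 7 called members kept their direction in all 140 values computed for them under the alternatives, and 97 of these passed the threshold. The count of 6 risers became 3 with library size alone and 3 with the replicate block, and was 4 to 6 with 1 library left out. The 1 fall was lost (0) with upper-quartile scaling, no filter, limma-voom, the replicate block and exact version matching, and was 0 to 1 with 1 library left out, the 1 being without DMSO replicate 4. Called genes of the 4 further lists numbered 3, but 1 with the replicate block. Called member transcripts numbered 0, but 1 with upper-quartile scaling, 7 with the DESeq2 Wald test and 0 to 1 with 1 library left out. Over all transcripts, upper-quartile scaling called 0.325% and the DESeq2 Wald test 2.14%. The replicate number did not pair the libraries: deviations of same-numbered libraries correlated at 0.076, -0.026, -0.03, 0.064 and -0.043, and not every library correlated best with its own number. With the block the call was lost for Fdps (adjusted p = 0.0914), Sqle (0.0526), Srebf2 (0.0686) and Abca1 (0.0906), and outside the members for Ch25h (0.064) and Fads1 (0.0825). Over all genes 712 were called, but 374 with the block, 328 with exact version matching, and 449 to 774 with 1 library left out. The count was 774 without BPS replicate 1, 449 without DMSO replicate 2, 462 without BPS replicate 2 or 4 and 465 without BPS replicate 3.

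Some members that did not pass the test changed sign. With library size alone the log2 fold change was -0.00739 for Acat2 and -0.0131 for Ggps1. Ggps1 was also at -3.15e-05 with DESeq2 size factors, -6.02e-05 without a filter and -0.0399 with exact version matching, and Hsd17b7 was at -0.0241 with exact matching. The most abundant transcript alone gave -0.0048 for Hmgcs1, -0.0188 for Hsd17b7, -0.00143 for Scap, 0.0233 for Insig2 and 0.000221 for Nr1h2. With 1 library left out, values ran from -0.0174 to 0.0225 for Acat2, -0.0174 to 0.0602 for Mvd, -0.0172 to 0.0162 for Ggps1, -0.0502 to 0.0104 for Nsdhl, -0.24 to 0.506 for Dhcr7, -0.0404 to 0.00993 for Mylip and -0.107 to 0.0911 for Nr1h3. None of these was called in any alternative. Exact matching left 30 members testable, without Msmo1 and Stard4, left Ch25h untested, and was not applied to transcripts. The cause of each change was not tested. Counts were low for Nr1h3, with 34 to 72 in a library.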
